A study of Mus musculus with 6 samples.

Results

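Potassium channels are membrane proteins that let potassium ions pass and so set the resting voltage of a cell. The genes described here are the mouse protein-coding genes whose symbol begins with Kcn. They were taken by symbol from the GENCODE M21 annotation of assembly GRCm38, which gave 94 genes, all of them among the 55401 gene IDs of the count table. By family, 40 encode voltage-gated pore subunits, 15 inward rectifiers and 14 pore subunits of the K2P (leak) type, while 17 encode auxiliary subunits. Another 8, with symbols in Kcnma, Kcnn, Kcnt or Kcnu, were placed by symbol with the calcium- or sodium-activated channels. By the tissue each is best known for, 10 were placed in a smooth muscle group, 3 in an endothelial group, 8 in a kidney group, 37 in a neural group, 11 in a heart and skeletal muscle group and 2 in a lymphocyte and macrophage group, and 23 had no group. The groups are textbook assignments and not measurements of these aortas.

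The RNA came from aortas of IL16-/-ApoE-/- mice (double mutants below), which lack interleukin-16 and apolipoprotein E, and of ApoE-/- mice, which lack apolipoprotein E alone. Every animal received high-fat food from 8 weeks of age, for 24 weeks. There were 3 libraries of each genotype. The labels name neither strain nor sex, nor how many animals stand behind a library. A p-value here measures the spread between these libraries, which may be technical. The double mutant libraries held 42861980 to 47208779 counts and the ApoE-/- libraries 65730552 to 85568269.

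In arterial smooth muscle, potassium leaving through these channels makes the cell interior more negative, closes voltage-gated calcium channels and relaxes the vessel. In endothelium, calcium-activated and inward rectifier channels pass a hyperpolarising signal to the underlying muscle. In kidney tubules, inward rectifiers return potassium across the cell membrane so that salt transport can go on. In nerve, voltage-gated members end the action potential.

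The ApoE-/- libraries were not alike, and this touches nearly every result below. The summed level of 8 smooth muscle markers was 9858, 8697 and 9548 CPM (counts scaled by library size with TMM factors) in double mutants 1, 2 and 3, and 4334, 19265 and 27631 CPM in ApoE-/- 1, 2 and 3. All 8 markers, Myh11 and Acta2 among them, were present in every library, as the aorta label requires, and all 8 had the order ApoE-/- 1 below the double mutants below ApoE-/- 2 and 3. How many of all tested genes had this order was not counted. With 6 libraries 0 of these 8 were called, at an unadjusted p under 0.05 also 0. Without ApoE-/- 1 all 8 fell, in a fit that called 12.8% of all tested genes lower. ApoE-/- 1 also differed in its sex-linked RNAs, with 474 CPM of Xist against at most 6.21 CPM in any of the other libraries. Its sex pattern and its tissue content cannot be told apart. Il16 itself, the targeted gene, was at 7.92, 12.1 and 12.2 CPM in the double mutants and at 28.3, 28.6 and 15.1 CPM in ApoE-/- mice (adjusted p = 0.163). Apoe RNA, from the gene targeted in both genotypes, was at 138, 183 and 137 CPM in the double mutants and at 45, 24.9 and 20.9 CPM in ApoE-/- mice (adjusted p = 0.0369). Neither RNA was absent, and the deleted exons are not named in the labels, so these levels do not check the deletions. In a bulk sample, fewer cells of a type and less RNA per cell cannot be told apart.

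Of the 94 genes, 67 passed the filter on low counts and were tested, and 4 (Kcna10, Kcnh5, Kcnk15 and Kcnk18) had no count in any library. By edgeR's quasi-likelihood test with Benjamini-Hochberg adjustment over 19833 genes, 1 potassium channel gene rose in the double mutants, the kidney channel Kcnj1, and 0 fell. Over all tested genes 1.14% rose and 0.0605% fell. At an unadjusted p under 0.05, 9 potassium channel genes were higher and 1 was lower, against 1760 higher and 1394 lower of all 19833 tested genes. The median log2 fold change of the 67 was 0.48, with 43 positive, against -0.05 and 9212 positive over all tested genes. A gene can pass the filter through the group where it is high, so this median is a description of the genes tested and not of all 94.

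Other tools called more genes. DESeq2 placed 7 higher, which were Kcna1, Kcna6, Kcnj1, Kcnj3, Kcnj9, Kcnj10 and Kcnj16, and 1 lower, Kcnt2, where it called 6.23% of all tested genes higher and 2.33% lower. Limma-voom called Kcnj1 alone, with 1.95% of all genes higher and 0.116% lower. With sample weights, limma-voom called 6 higher (Kcnh4, Kcnj1, Kcnj10, Kcnj16, Kcnk3 and Kcnn4) and 4 lower (Kcnab1, Kcnh2, Kcnma1 and Kcnt2), with 9.39% of all genes higher and 7.50% lower. Without ApoE-/- 1, edgeR called 10 potassium channel genes higher and 11 lower of 70 tested, where 13.1% of all tested genes were higher and 12.8% lower. The count of calls thus depended on the tool and on that library. It also fell to 0 without any 1 double mutant library, in fits that called 0 of all tested genes. In those fits 6 to 8 potassium channel genes were higher and 1 to 2 lower at an unadjusted p under 0.05. Over all tested genes 1920 to 2042 had such a p in either direction. Every library of the double mutants lay above every ApoE-/- library in 14 of the 67 genes and below in 1, against 14.9% and 11.5% of all tested genes.

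**Figure D1:**
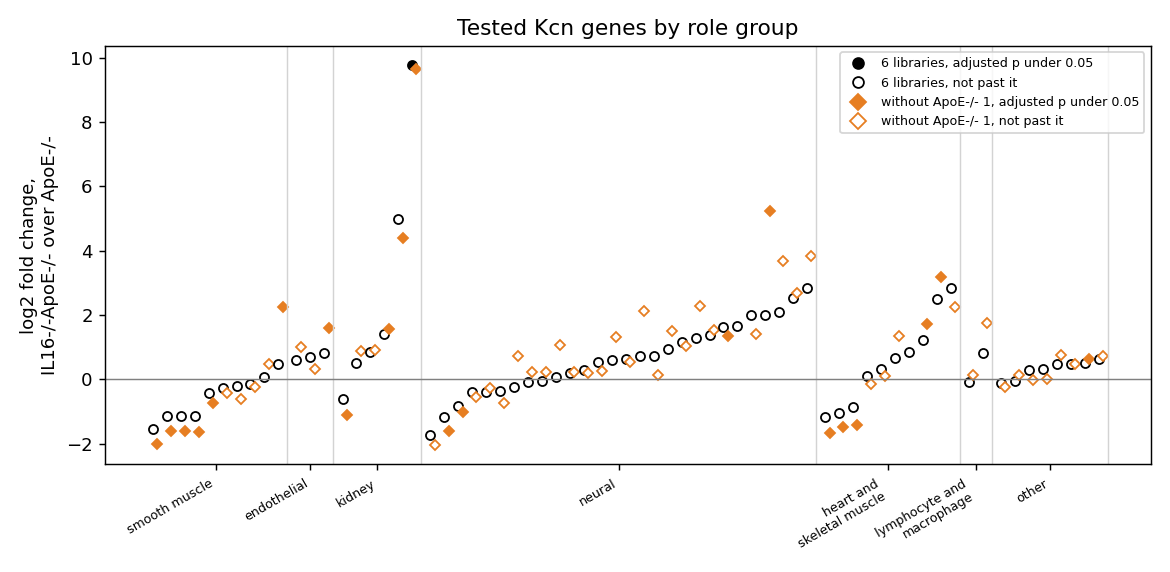
Log2 fold change (IL16-/-ApoE-/- over ApoE-/-, vertical axis) of each tested Kcn gene, by group along the horizontal axis; circles are the fit to 6 libraries and diamonds the fit without ApoE-/- 1, filled where the adjusted p was under 0.05. With 6 libraries only Kcnj1 is filled, and without ApoE-/- 1 there are 21 filled diamonds, most of those below 0 in the smooth muscle and heart groups.

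The smooth muscle group held 7 of the 10 potassium channel genes with the highest level per transcript length. All 10 members were tested, 0 rose, 0 fell and 8 were negative, and the median log2 fold change was -0.33. Summed over the group the level was 362, 324 and 344 CPM in the double mutants and 289, 628 and 867 CPM in ApoE-/- 1, 2 and 3. The double mutants thus lay between ApoE-/- 1 and the other ApoE-/- libraries, and 7 of the 10 genes had that same order of libraries one by one. Of all 67 tested potassium channel genes 11 had it, and its share over all tested genes was not counted.

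The large-conductance calcium-activated (BK) channel opens on calcium sparks and brakes arterial constriction. Its pore gene Kcnma1 (minus strand of chromosome 14, 23289431 to 24014491) had levels of 19.2, 17.5 and 24.3 CPM in the double mutants and of 11.3, 60.3 and 62.6 CPM in ApoE-/- mice. Kcnmb1 (chromosome 11, 33963013 to 33973641, plus strand), the smooth muscle beta subunit that raises the calcium sensitivity of the pore, was at 79.5, 69.2 and 72.5 CPM against 28.3, 188 and 265 CPM. In both genes the groups overlapped through ApoE-/- 1 alone. The log2 fold changes were -1.14 for Kcnma1 (SE 0.59, adjusted p = 0.395) and -1.12 for Kcnmb1 (SE 0.70, adjusted p = 0.464), and neither passed. Without ApoE-/- 1 both passed, at -1.60 (SE 0.16, adjusted p = 0.00278) and -1.62 (SE 0.17, adjusted p = 0.00293). The pair kept a similar proportion, since Kcnmb1 TPM (a level per transcript length) over Kcnma1 TPM was 3.68, 3.51 and 2.66 in the double mutants and 2.23, 2.78 and 3.77 in ApoE-/- mice, ranges that overlap.

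Kcnab1 (chromosome 3, 65109384 to 65378223, plus strand), a beta subunit of voltage-gated channels of the Kv1 family, had the widest range in CPM. It was at 63.9, 57.2 and 59.4 CPM in the double mutants and at 36.0, 175 and 311 CPM in ApoE-/- mice, with a log2 fold change of -1.53 (SE 0.68, adjusted p = 0.337). Without ApoE-/- 1 the value was -2.02 (SE 0.24, adjusted p = 0.00400). It shared the library order of the BK channel. Kcne4, an auxiliary subunit of voltage-gated channels, was at 27.6, 23.1 and 24.3 CPM against 16.1, 38.4 and 44.99 CPM, and passed only without ApoE-/- 1 (-0.74, SE 0.14, adjusted p = 0.0139). Kcnq5, a voltage-gated pore gene, had lower levels in the same order of libraries, 4.47, 4.41 and 5.51 CPM against 1.94, 6.55 and 8.16 CPM (-0.21, SE 0.52, adjusted p = 0.859).

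Other members of the group varied less or followed another order. Kcnj8, the pore of the vascular ATP-sensitive channel, was at 43.4, 44.4 and 40.2 CPM in the double mutants and at 39.1, 66.6 and 47.2 CPM in ApoE-/- mice (-0.26, SE 0.22, adjusted p = 0.580). It did not pass without ApoE-/- 1 either (adjusted p = 0.114). The delayed rectifier Kcna5 was at 5.69, 3.46 and 3.60 CPM against 6.17, 0.416 and 5.60 CPM, with ApoE-/- 2 far below the rest (0.06, SE 0.85, adjusted p = 0.978).

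Kcnk3, an acid-sensitive leak channel that is also known from brown fat in mice, ran against the rest of the group. It was at 69.9, 63.0 and 59.96 CPM in the double mutants and at 112, 19.4 and 7.81 CPM in ApoE-/- 1, 2 and 3 (0.47, SE 0.88, adjusted p = 0.811). Here ApoE-/- 1 was the highest library and not the lowest, and without it the fold change was 2.24 (SE 0.40, adjusted p = 0.0138). The summed level of 5 adipocyte markers was also low in ApoE-/- 2 and 3, with 4516, 4669 and 4328 CPM in the double mutants and 4474, 591 and 568 CPM in ApoE-/- mice. Of these markers 1 of 5 rose with 6 libraries and 5 of 5 without ApoE-/- 1, against 1.14% and 13.1% of all tested genes. The part of these markers in the Kcnk3 values was not tested. Per 1000 CPM of those markers, Kcnk3 was at 15.5, 13.5 and 13.9 CPM in the double mutants and at 25.0, 32.9 and 13.8 CPM in ApoE-/- mice, so the groups overlapped.

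**Figure D2:**
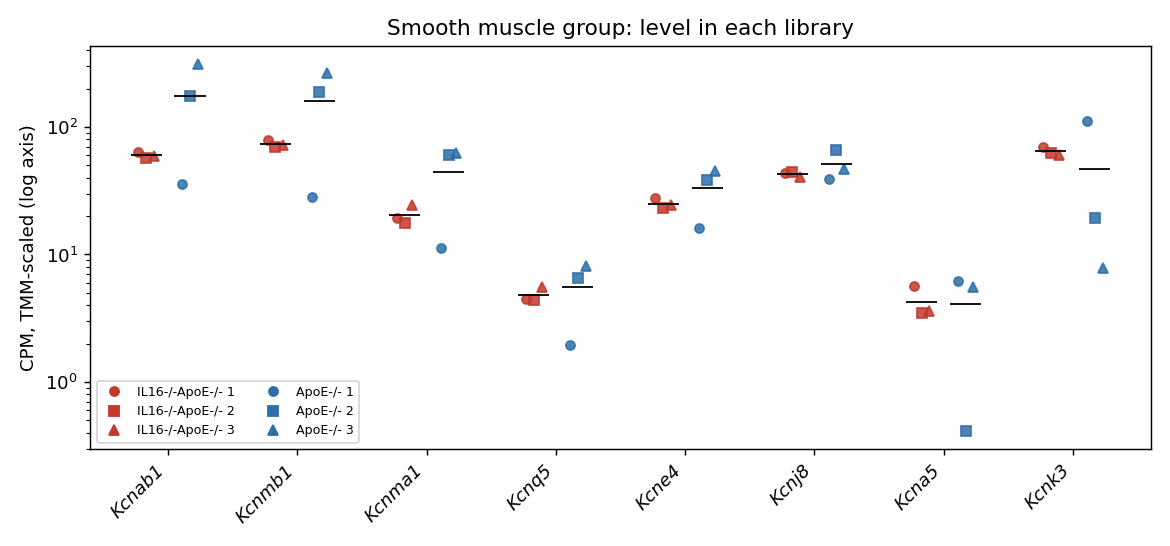
Level in CPM (log axis) of 8 of the 10 smooth muscle group genes in each library, IL16-/-ApoE-/- left of ApoE-/-, with lines at the group means. For Kcnmb1, ApoE-/- 1 sits at 28.3 CPM below the double mutants and ApoE-/- 2 and 3 at 188 and 265 CPM above them, while Kcnk3 has the opposite order.

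Set against the 8 smooth muscle markers, the spread among libraries narrowed for Kcnma1, Kcnmb1 and Kcnab1 but widened for Kcnj8. Kcnma1 was at 1.95, 2.02 and 2.55 CPM per 1000 CPM of markers in the double mutants and at 2.61, 3.13 and 2.26 in ApoE-/- mice, so the groups overlapped. Kcnmb1 was at 8.07, 7.96 and 7.60 against 6.52, 9.77 and 9.60, ranges that overlap as well. The ratio of Kcnab1 did not overlap, at 6.49, 6.58 and 6.22 in the double mutants and 8.30, 9.10 and 11.2 in ApoE-/- mice. The markers and the channels come from the same libraries, and the part of smooth muscle content in the channel values was not tested further.

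3 genes of the heart group and 1 of the kidney group had the same order of libraries as the smooth muscle markers. Kcnh2, the pore of the rapid delayed rectifier of the heart, was at 49.5, 46.2 and 52.0 CPM in the double mutants and at 29.6, 113 and 163 CPM in ApoE-/- mice (-1.05, SE 0.55, adjusted p = 0.399, and -1.49, SE 0.17, adjusted p = 0.00378 without ApoE-/- 1). Per 1000 CPM of smooth muscle markers it was at 5.02, 5.32 and 5.45 against 6.83, 5.85 and 5.91, a narrow range in which the groups did not overlap. Kcnd3, which carries the transient outward current, was at 12.9, 11.7 and 12.9 CPM against 4.91, 39.2 and 40.3 CPM (-1.17, SE 0.69, adjusted p = 0.444, and -1.67, SE 0.12, adjusted p = 0.00137 without ApoE-/- 1). The voltage-gated pore gene Kcnc4 was at 8.47, 10.3 and 8.93 CPM against 1.09, 21.9 and 26.9 CPM (-0.85, SE 0.93, adjusted p = 0.672, and -1.41, SE 0.17, adjusted p = 0.00422 without ApoE-/- 1). Kcnj15, an inward rectifier placed in the kidney group, was at 29.9, 27.5 and 28.7 CPM against 6.68, 71.6 and 52.8 CPM. It stood apart from the other kidney genes in level and direction (-0.61, SE 0.73, adjusted p = 0.698, and -1.12, SE 0.15, adjusted p = 0.00573 without ApoE-/- 1), and per 1000 CPM of smooth muscle markers it was at 3.04, 3.17 and 3.00 against 1.54, 3.72 and 1.91.

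**Figure D3:**
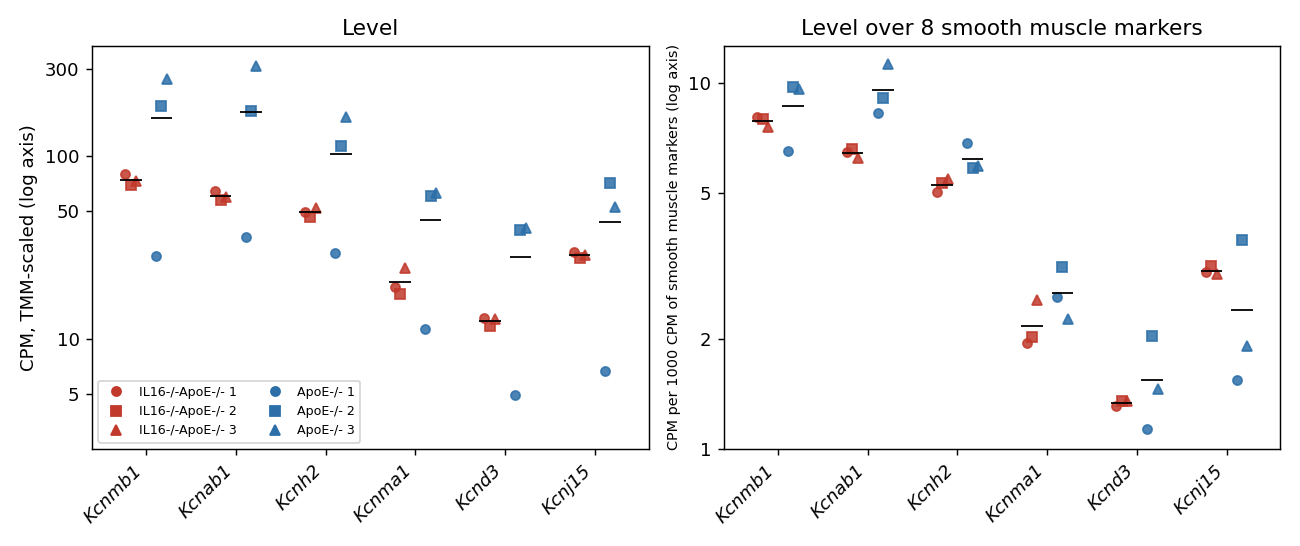
Left, level in CPM (log axis) of 6 genes in each library, and right, the same genes per 1000 CPM of the 8 summed smooth muscle markers (log axis), IL16-/-ApoE-/- left of ApoE-/-, with lines at the group means. For Kcnma1 the 6 libraries run from 11.3 to 62.6 CPM on the left and from 1.95 to 3.13 on the right.

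In the endothelial group 0 of 3 tested genes passed, and all 3 fold changes were positive. Kcnn3, a small-conductance calcium-activated channel, was at 6.45, 7.13 and 7.16 CPM in the double mutants and at 1.85, 6.91 and 4.17 CPM in ApoE-/- mice (0.68, SE 0.47, adjusted p = 0.504). Kcnn4, the intermediate-conductance channel of endothelium and also of lymphocytes and macrophages, was at 21.5, 23.8 and 20.3 CPM against 22.6, 9.42 and 4.98 CPM (0.83, SE 0.52, adjusted p = 0.465). Kcnj2, the strong inward rectifier, was at 4.26, 4.66 and 5.02 CPM against 4.59, 3.01 and 1.63 CPM (0.59, SE 0.42, adjusted p = 0.509). In Kcnn4 and Kcnj2 the ApoE-/- 1 library matched the double mutants, and ApoE-/- 3 was lowest. Only Kcnn4 passed without ApoE-/- 1 (1.60, SE 0.30, adjusted p = 0.0140). The 8 endothelial markers summed to 1270 to 1307 CPM in the double mutants and 667 to 1149 CPM in ApoE-/- mice. Of the 8, 6 had every double mutant library above every ApoE-/- library, against 14.9% of all tested genes. With 6 libraries 0 were called (2 higher at an unadjusted p under 0.05, against 1760 of all 19833 tested genes). Without ApoE-/- 1, 6 of the 8 rose, as did 13.1% of all tested genes, and Kcnn4 passed in that fit. The 5 macrophage markers summed to 4046, 5782 and 4312 CPM in the double mutants and 4189, 2106 and 331 CPM in ApoE-/- 1, 2 and 3. Of the macrophage markers 0 of 5 were called in either fit. No marker of either list was at 0 in a whole group, and their part in the Kcnn4 values was not tested.

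The kidney group held the potassium channel gene that rose. Kcnj1 (chromosome 9, 32372493 to 32399197, plus strand) encodes the channel through which the thick ascending limb and collecting duct secrete potassium. It had 79, 79 and 80 counts in the double mutants, or 1.82, 1.66 and 1.86 CPM, and 0 counts in all 3 ApoE-/- libraries. Set against a floor of 3 counts over the 3 ApoE-/- libraries summed, it was at least 139-fold higher (adjusted p = 0.0248). It passed the filter through the double mutants alone. The call held without any 1 ApoE-/- library (adjusted p = 0.00307, 0.0460 and 0.0284 without 1, 2 and 3). It was lost without double mutant 1, 2 or 3 (0.194, 0.178 and 0.196), in fits that called 0 of all tested genes. Over 16 alternatives the adjusted p of Kcnj1 ranged from 1.13e-11 to 0.222.

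Kcnj16 and Kcnj10 encode inward rectifiers that pair in the basolateral membrane of the distal tubule. Kcnj16 (chromosome 11, 110968033 to 111027968, plus strand) was at 4.54, 3.71 and 4.42 CPM in the double mutants and at 0, 0.201 and 0.199 CPM in ApoE-/- mice (4.98, SE 1.07, adjusted p = 0.104). Kcnj10 (chromosome 1, 172341210 to 172374085, plus strand), which is also a channel of glial cells, was at 4.24, 4.41 and 3.44 CPM against 1.78, 0.917 and 1.80 CPM (1.42, SE 0.38, adjusted p = 0.153). Neither passed with 6 libraries, though the groups did not overlap in either, and both passed without ApoE-/- 1 (adjusted p = 0.00190 and 0.0366) and in DESeq2. The 12 nephron markers summed to 498, 482 and 532 CPM in the double mutants and to 3.78, 3.70 and 1.61 CPM in ApoE-/- mice. Of 11 tested, 7 rose with 6 libraries and 9 without ApoE-/- 1, against 1.14% and 13.1% of all tested genes. In either fit 0 fell, and 5 of the 12 (Kap, Umod, Slc12a1, Miox and Cldn16) were at 0 in all ApoE-/- libraries. Cldn16, however, had only 4, 6 and 0 counts in the double mutants and was too low to test. Of all 55401 genes 24725 were at 0 in all ApoE-/- libraries, 22652 of them in every library. Kcnj1 per 1000 CPM of the 12 nephron markers came to 3.66, 3.44 and 3.50 CPM across double mutants 1, 2 and 3. The same ratio of Kcnj16 was 9.11, 7.71 and 8.31 in the double mutants and 0, 54.3 and 123 in ApoE-/- mice. For Kcnj10 it was 8.51, 9.15 and 6.47 against 470, 248 and 1115. The ratios in ApoE-/- mice rest on low marker sums. The part of kidney RNA in these values was not tested.

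The other kidney genes did not share this pattern. The leak channel Kcnk1 was at 0.760, 1.83 and 1.84 CPM in the double mutants against 0.870, 0.946 and 0.621 CPM in ApoE-/- mice (0.86, SE 0.49, adjusted p = 0.424). Kcnk5, an alkali-activated leak channel of the proximal tubule, was at 2.83, 3.86 and 2.77 CPM against 3.22, 2.24 and 1.18 CPM (0.51, SE 0.44, adjusted p = 0.589). Kcne1, an auxiliary subunit with sites in the proximal tubule and the heart, had 7, 0 and 7 counts against 0 in every ApoE-/- library and was too low to test. In all, 3 of the 6 tested genes of the group had every double mutant library above every ApoE-/- library, against 14.9% of all tested genes.

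**Figure D4:**
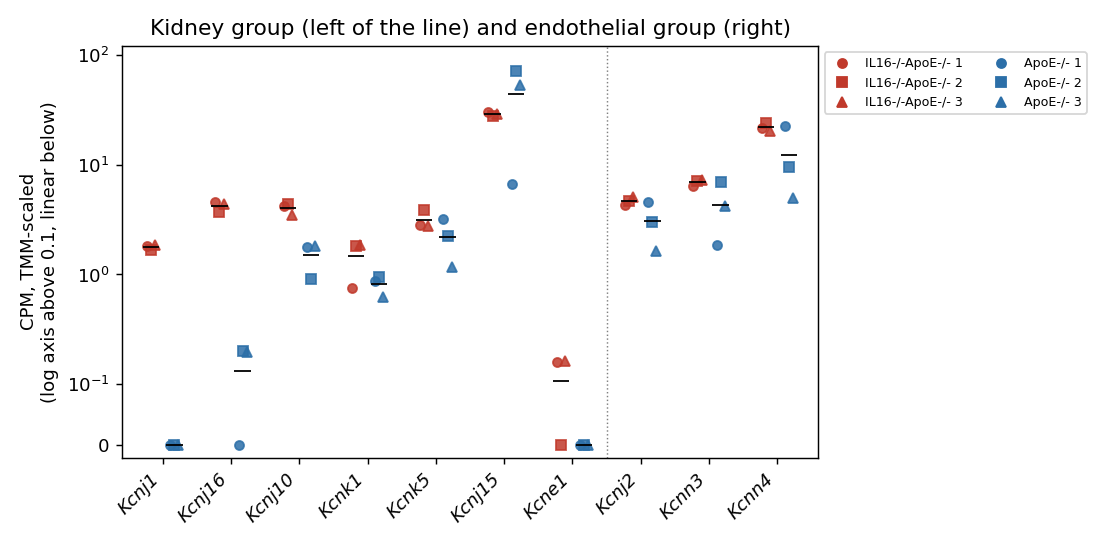
Level in CPM (log axis above 0.1 CPM, linear below) of 7 kidney group genes, left of the dotted line, and the 3 endothelial group genes, right of it, IL16-/-ApoE-/- left of ApoE-/-, with lines at the group means. Kcnj1 lies at 1.66 to 1.86 CPM in the double mutants and at 0 in ApoE-/- mice, while for Kcnj15 the ApoE-/- libraries lie on both sides of the double mutants.

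Inward rectifiers share the signature of the selectivity filter, the loop that admits potassium. Its codons are printed in capitals, with 6 bases on each side, from the longest open reading frame in GENCODE M21, to show how far 2 kidney genes and 2 vascular relatives differ where they are most alike.
Kcnj1: caagtgACCATAGGTTACGGAttcagg
Kcnj10: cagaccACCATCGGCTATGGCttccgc
Kcnj2: cagacaACCATTGGCTATGGTttcagg
Kcnj8: caagtgACCATTGGGTTTGGAgggaga
Each codon stretch is distinct at the base level. Among all transcripts of the 94 genes, 11 pairs of genes shared any identical stretch of 50 bases. Kcnj15 and Kcnj16 shared 29 such stretches and Kcna5 and Kcna6 shared 79, so counts of these pairs are less certain. Kcnj1 shared none with another potassium channel gene.

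The promoter windows of Kcnj1 and Kcnj16, from 250 bases before to 50 bases after a RefSeq start on GRCm38.p6, are shown because these 2 genes had the highest fold changes of the group. Capitals mark a match to GTTAAT, letters bound by the tubule factor HNF1, on either strand.
Kcnj1, chr9:32393735-32394034, plus strand: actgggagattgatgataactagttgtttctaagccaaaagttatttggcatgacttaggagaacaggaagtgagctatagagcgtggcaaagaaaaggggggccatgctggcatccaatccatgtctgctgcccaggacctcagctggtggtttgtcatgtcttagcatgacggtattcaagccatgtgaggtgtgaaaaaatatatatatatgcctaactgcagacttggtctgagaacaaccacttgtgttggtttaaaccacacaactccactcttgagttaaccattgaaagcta
Kcnj16, chr11:110967783-110968082, plus strand, the first of 4 starts: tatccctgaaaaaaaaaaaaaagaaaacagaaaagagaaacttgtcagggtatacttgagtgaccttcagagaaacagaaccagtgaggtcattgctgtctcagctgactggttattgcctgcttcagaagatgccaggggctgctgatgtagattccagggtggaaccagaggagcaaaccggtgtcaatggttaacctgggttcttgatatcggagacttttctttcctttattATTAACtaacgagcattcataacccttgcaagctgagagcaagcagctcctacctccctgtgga
The printed Kcnj16 window held 1 match, on the minus strand, and the Kcnj1 window held 0. Windows 2, 3 and 4 of Kcnj16, not printed, held no GTTAAT, and window 3 held TATAAA. The Kcnj1 window lies inside the gene span given above, which starts at 32372493. Of all 32851 promoter windows 7.1% held GTTAAT, and of the 94 windows of the 69 potassium channel genes with an entry 4 did (4.26%). TATAAA, counted on either strand, was in 13.6% of all windows and in 5 of the 94 (5.32%), and the CArG box of smooth muscle genes in 1.63% of all windows and in 0 of the 94. The windows printed here held neither TATAAA nor a CArG box. These letter matches are a description of the windows.

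In the neural group 28 of 37 genes were tested, and 0 rose and 0 fell. The median log2 fold change was 0.62, with 19 positive. Double mutant libraries lay wholly above ApoE-/- libraries in 7 genes and wholly below in 1, against 14.9% and 11.5% of all tested genes. Kcna1 and Kcna6 are pore subunits of Kv1 channels of axons. Kcna1 was at 3.71, 5.20 and 3.07 CPM in the double mutants and at 0.763, 1.35 and 1.75 CPM in ApoE-/- mice (1.63, SE 0.43, adjusted p = 0.151, and 0.0415 without ApoE-/- 1). Kcna6 was at 6.40, 8.54 and 3.98 CPM against 2.31, 3.28 and 2.91 CPM (1.15, SE 0.36, adjusted p = 0.212), but 39.6% of its exon bases lie opposite those of the antisense gene Gm26673. Both were highest in double mutant 2. The G protein-gated Kcnj9 was at 0.299, 1.15 and 0.698 CPM against 0.143, 0.172 and 0.0497 CPM (2.55, SE 0.80, adjusted p = 0.212). Kcnh1, Kcnk4 and Kcnd2 were also among the 10 neural genes with the smallest p, at log2 fold changes of 0.93 to 1.37 and adjusted p of 0.369 to 0.435.

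The 12 Schwann cell and neuron markers summed to 353, 345 and 245 CPM in the double mutants and to 118, 91.0 and 101 CPM in ApoE-/- mice. Of the 12, 11 had every double mutant library above every ApoE-/- library, against 14.9% of all tested genes. None of the 12 was at 0 in a whole group. With 6 libraries 0 were called (10 higher at an unadjusted p under 0.05, against 1760 of all 19833 tested genes). Without ApoE-/- 1, 7 of the 12 rose, as did 13.1% of all tested genes, and Kcna1 passed in that fit. The part of these markers in the neural channel values was not tested. Among genes outside the rule for named genes, chosen after their values were seen, Kcna2 and Kcnc1 also had no overlap (14.3 to 16.0 CPM against 5.83 to 13.6 CPM, and 0.233 to 0.530 CPM against 0 to 0.191 CPM), and Kcnmb4, a neuronal BK subunit, passed only without ApoE-/- 1 (adjusted p = 0.0428).

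Kcnt2, a sodium-activated channel, was the 1 potassium channel gene whose double mutant libraries all lay below the ApoE-/- libraries. It was at 13.9, 13.3 and 15.2 CPM against 18.4, 32.9 and 23.6 CPM (-0.82, SE 0.24, adjusted p = 0.182, and -1.002, SE 0.18, adjusted p = 0.0128 without ApoE-/- 1). It also passed in DESeq2 and in limma-voom with sample weights. The channel-interacting proteins Kcnip1 and Kcnip4 had negative fold changes with overlapping groups. Kcnip4 was at 8.36, 4.26 and 5.19 CPM against 4.33, 10.3 and 25.4 CPM (-1.17, SE 0.64, adjusted p = 0.411, and 0.0495 without ApoE-/- 1). Kcnip1 was at 0.668, 0.441 and 1.53 CPM against 1.42, 1.52 and 5.76 CPM (-1.72, SE 0.76, adjusted p = 0.337), and its span contains Kcnmb1 on the opposite strand, although the annotated exons of these genes share no base.

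In the heart and skeletal muscle group 10 of 11 genes were tested, with 0 called, 7 positive and a median of 0.50. Kcnj3 and Kcnj5 encode the subunits of the atrial channel opened by acetylcholine. Kcnj3 was at 2.74, 0.755 and 1.79 CPM in the double mutants and at 0.549, 0.287 and 0.0994 CPM in ApoE-/- mice (2.49, SE 0.78, adjusted p = 0.218, and 0.0366 without ApoE-/- 1). Of the Kcnj3 exon bases, 31.1% lie opposite those of the noncoding gene Gm26794. Kcnj5 was at 1.45, 0.399 and 1.05 CPM against 0, 0.401 and 0 CPM (2.86, SE 1.68, adjusted p = 0.439). Double mutant 2 was the lowest of its group in both. It was also lowest in the summed level of 8 cardiac muscle markers, at 437, 215 and 366 CPM in the double mutants, against 84.2, 32.3 and 48.0 CPM in ApoE-/- mice. Of those markers 2 of 8 rose with 6 libraries and 7 of 8 without ApoE-/- 1, against 1.14% and 13.1% of all tested genes. Kcnj3 and Kcnq1 passed in the fit without ApoE-/- 1. The 6 skeletal muscle markers summed to 61.9, 16.2 and 266 CPM in the double mutants and to 8.60, 2.88 and 5.55 CPM in ApoE-/- mice, again lowest in double mutant 2 within its group. Of these, 0 of 6 were called with 6 libraries (6 higher at an unadjusted p under 0.05, against 1760 of all 19833 tested genes). Without ApoE-/- 1, 3 of the 6 rose, as did 13.1% of all tested genes. In every marker of both lists all double mutant libraries lay above all ApoE-/- libraries, against 14.9% of all tested genes. None of these markers was at 0 in a whole group. Their part in the values of this gene group was not tested. Kcnq1, the slow delayed rectifier of the heart that also serves epithelia, was at 3.34, 2.96 and 4.05 CPM against 2.29, 1.42 and 0.671 CPM (1.24, SE 0.49, adjusted p = 0.298, and 0.0366 without ApoE-/- 1). The remaining Kcnj11, Kcnj12, Kcnj14 and Kcnip2 had overlapping groups and adjusted p of 0.745 to 0.943.

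**Figure D5:**
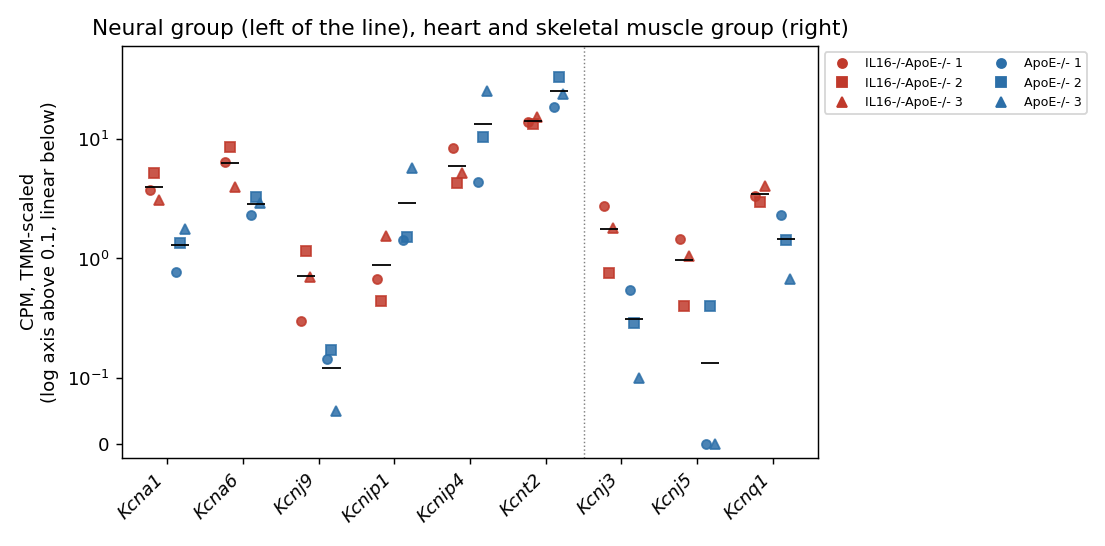
Level in CPM (log axis above 0.1 CPM, linear below) of 6 neural group genes, left of the dotted line, and 3 heart group genes, right of it, IL16-/-ApoE-/- left of ApoE-/-, with lines at the group means. For Kcna1 the double mutants lie at 3.07 to 5.20 CPM and ApoE-/- mice at 0.763 to 1.75 CPM, and Kcnt2 is the one gene with all double mutant libraries below.

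Of the lymphocyte and macrophage genes, Kcnk13, a leak channel of myeloid cells, was at 8.06, 11.0 and 9.56 CPM in the double mutants and at 10.6, 5.17 and 0.484 CPM in ApoE-/- 1, 2 and 3 (0.81, SE 0.90, adjusted p = 0.673). The macrophage marker sums given above were also lowest in ApoE-/- 3, and their part in the values was not tested. The T cell channel Kcna3 was at most 0.516 CPM in any library (-0.07, SE 0.84, adjusted p = 0.976). Among genes with no group 8 of 23 were tested and 0 were called. Kcnk6, a leak channel, was at 15.2, 17.0 and 15.5 CPM against 13.2, 11.2 and 9.19 CPM without overlap (0.51, SE 0.20, adjusted p = 0.289, and 0.0375 without ApoE-/- 1). Kcns3, a silent subunit that joins other voltage-gated pores, was at 11.2, 9.86 and 10.3 CPM against 13.2, 8.03 and 11.0 CPM (-0.03, SE 0.24, adjusted p = 0.956). The other 6 tested were below 5 CPM in every library, with adjusted p of 0.541 to 0.922.

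Levels per transcript length give the order of the genes. Averaged over the 6 libraries, the 10 highest included Kcnab1 (61.4 TPM), Kcnmb1 (47.7), Kcnh2 (34.5), Kcnj8 (32.4), Kcnk3 (22.6), Kcne4 (21.7), Kcnma1 (15.02), Kcnn4 (13.9) and Kcnd3 (13.2). Neighbours in this order are not resolved, since most of these genes vary widely among the ApoE-/- libraries. Kcnab1 made up 10.01%, 9.33% and 9.66% of the summed potassium channel TPM in the double mutants and 7.18%, 18.2% and 25.7% in ApoE-/- 1, 2 and 3. Kcnk3 made up 9.31%, 8.75% and 8.30% in the double mutants and 19.1%, 1.71% and 0.550% in ApoE-/- mice. The leading channel thus differed among ApoE-/- libraries and was nearly level with others in the double mutants.

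Several of these genes are neighbours on a chromosome. Kcnj5 and Kcnj1 lie 28.1 kb apart on chromosome 9, Kcnj9 and Kcnj10 11.9 kb apart on chromosome 1, Kcnj16 and Kcnj2 38.2 kb apart on chromosome 11, and Kcna1 and Kcna6 61.9 kb apart on chromosome 6. Of the 9 neighbouring pairs within 100 kb, 6 had both genes tested. Both fold changes were positive in the 4 pairs above and both negative for Kcnip1 and Kcnmb1, while Kcna3 and Kcna2 had opposite signs. Of all tested potassium channel genes 43 of 67 were positive.

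Genes of proteins that work with the channels gave 1 call with 6 libraries. Of 8 partner subunits 5 were tested, and 0 rose and 0 fell, with a median log2 fold change of -0.05. Abcc9, the sulphonylurea receptor that assembles with Kcnj8, was at 195, 181 and 201 CPM in the double mutants and at 145, 487 and 385 CPM in ApoE-/- mice (-0.82, SE 0.43, adjusted p = 0.399). It fell without ApoE-/- 1 (-1.18, SE 0.14, adjusted p = 0.00395) and in limma-voom with sample weights (-1.11, SE 0.24, adjusted p = 0.0242). Without ApoE-/- 1 the other partner subunit that passed was Dpp6, which joins Kv4 channels in nerve and heart (5.20, SE 0.97, adjusted p = 0.0143). Dpp6 was at 1.73, 1.68 and 0.581 CPM in the double mutants and at 0.763, 0.0573 and 0.0124 CPM in ApoE-/- mice (2.24, SE 1.31, adjusted p = 0.436 with 6 libraries). Of 17 calcium channel, release channel and ion transport genes of the vessel wall, 1 rose, 0 fell and 13 were negative, with a median of -0.46. Atp1b1, a beta subunit of the sodium pump that is abundant in kidney tubules, rose, at 76.8, 73.5 and 72.4 CPM against 21.4, 27.5 and 13.4 CPM (1.84, SE 0.27, adjusted p = 0.0389). Its call was lost without ApoE-/- 2 (adjusted p = 0.0579) and without double mutant 1, 2 or 3 (0.219, 0.199 and 0.208). The fits without a double mutant library called 0 of all tested genes. The calcium-activated cation channel Trpm4 was at 20.3, 19.3 and 23.8 CPM against 24.9, 39.0 and 56.9 CPM without overlap (-0.93, SE 0.30, adjusted p = 0.228). The calcium channel subunits Cacnb2, Cacna1h and Cacna2d1 had log2 fold changes of -1.20 to -0.88 and did not pass in edgeR with 6 libraries. Without ApoE-/- 1, Trpm4, Cacnb2 and Cacna2d1 passed (adjusted p = 0.00961, 0.00366 and 0.00824) and Cacna1h did not (0.122). In limma-voom with sample weights Trpm4 and Cacnb2 passed (0.0236 and 0.0492), and Cacna2d1 and Cacna1h did not (0.0545 and 0.305). Without ApoE-/- 1, 1 of the 17 was called higher and 9 lower, where 13.1% of all tested genes were higher and 12.8% lower.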

How the data were processed

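Aorta RNA was sequenced in 6 samples as strand-marked polyadenylated libraries, per the labels' protocols. The authors deposited raw read counts per Ensembl gene, judged from whole numbers with unequal totals. Cutadapt, HISAT2 and StringTie are named per the submitters' processing notes. The labels state no build, annotation, counting program or strand setting. Reads of overlapping or near-identical genes are therefore uncertain, and 28 of the 94 Kcn genes share exon bases with another annotated gene.

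Symbols, positions and median basic-transcript lengths came from GENCODE M21 (55141 IDs matched, 260 did not). edgeR's filterByExpr (minimum count 10, total 15) kept 19833 genes. TMM scaling and edgeR's quasi-likelihood test (robust, two-sided, no covariate) were fitted across all genes, with Benjamini-Hochberg adjustment at 0.05. The pipeline was tested on simulated data. SE is the fold change over the square root of F. A count of 0 allows 3 counts, or 0.0629 to 0.0698 CPM in a double mutant library and 0.0358 to 0.0430 CPM in an ApoE-/- library, which covers counting error only. TPM was computed here from the counts. Named were every called member, all smooth muscle, endothelial and kidney members, up to 10 by smallest p in the other groups, the 10 highest in TPM, and pathway genes called or among the next 4 by p. Members, groups and lists were chosen with earlier results of these data known. Alternatives were other scalings and filters, DESeq2, limma-voom, a length trend, a replicate block and leaving out each library. Some named genes and sequences are not reported here. Versions were R 4.3.3, edgeR 4.0.16, limma 3.58.1, DESeq2 1.42.0, Python 3.11.15 and matplotlib 3.10.9.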

Additional observations from a re-analysis of the deposited data

How the results depend on the processing

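The count of potassium channel genes called higher was 1 with all libraries, 7 in DESeq2, 6 in limma-voom with sample weights and 0 with the replicate block, and 0 to 10 with 1 library left out. The count called lower was 0 with all libraries, 1 in DESeq2, 4 in limma-voom with sample weights, and 0 to 11 with 1 library left out. The highest counts of both came without ApoE-/- 1, and leaving out any 1 double mutant library left no call. Both counts stayed as they were under the other scalings and filters, limma-voom and the length trend. Over all genes the block and each fit without a double mutant library called 0 higher and 0 lower, while 2327 and 1920 to 2042 genes had p under 0.05 before adjustment. The numbers 1 to 3 did not pair the libraries (correlations of deviations -0.0400, -0.0271 and -0.00950). Under the block Kcnj1 had an adjusted p of 0.222 and Atp1b1 of 0.179.

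No reversal concerned a gene called with all 6 libraries, but Kcnk3 and Kcnc4, called only without ApoE-/- 1 or with sample weights, were among the genes whose sign turned. Signs turned for Kcnq5 (0.045), Kcna3 (0.28) and Kcnc4 (0.17) in limma-voom, for Kcnq5 (0.00093) and Kcna3 (0.21) with the block, and for Kcng4 (-0.074) and Kcns3 (0.22) with sample weights. With 1 library left out, log2 fold changes ran from -0.20 to 0.69 (Abcc8), -0.55 to 0.36 (Kcna3), -0.46 to 0.49 (Kcna5), -0.020 to 0.60 (Kcnd1), -0.00056 to 1.24 (Kcng4), -0.43 to 1.36 (Kcnip2), -0.16 to 0.80 (Kcnj12), -0.035 to 2.24 (Kcnk3), -0.62 to 0.17 (Kcnq5), -0.27 to 0.14 (Kcnrg) and -0.20 to 0.14 (Kcns3). Over all alternatives, single genes kept their direction and side of the threshold in 790 cases, gained a call in 41 and lost one in 9. The cause of these turns was not tested. At these depths genes under 1 CPM rest on few counts.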
